A study of Arabidopsis thaliana with 10 samples.

Results

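Arabinogalactan proteins and their fasciclin-like relatives are a family of heavily glycosylated cell surface proteins, and 35 of their genes were followed here through gamma irradiation of Arabidopsis thaliana seedlings. The members were 28 AGP genes and 7 FLA genes (FLA1, FLA2, FLA7, FLA8, FLA9, FLA11 and FLA12), taken as a list of locus codes out of 34290 genes on the array. The list was drawn up with the gamma response of these same arrays in view. The changes between gamma and mock are therefore given below as a description. Members past the threshold in that contrast are counted beside the share of all genes, with no p-value, and again under alternative processing. These counts support nothing. Tests of members are kept for differences between experiments and between years. The test between experiments takes its error term from the spread of the gamma minus mock changes, so it is not wholly free of the choice.

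The plants were whole seedlings of ecotype Col-0, aged 14 days. One group received 200 Gy of gamma radiation at 50 Gy per h over 4 h and the other a mock treatment, and both were harvested 24 h after it. There were 5 independent experiments, carried out on separate days and each represented by a pair of single-dye arrays, one mock and one gamma. Experiments 1 and 2 belong to an earlier year than the other 3. On the 10 arrays 71.5% to 76.4% of spots were well above background. The arrays of experiment 5 stood apart at 76.2% and 76.4%, while the others lay between 71.5% and 73.2%. Precision is limited by how few arrays there are. The mock array lay in position 1 of its slide and the gamma array in position 2 in all 5 experiments, so the position and the treatment cannot be told apart.

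An arabinogalactan protein consists of a backbone rich in proline, alanine, serine and threonine that passes through the secretory pathway. Prolyl hydroxylases turn prolines into hydroxyproline, glycosyltransferases then build branched galactan chains with arabinose and glucuronic acid on them, and many members are held at the plasma membrane by a lipid anchor. Classical AGPs are largely such a backbone, AG peptides are very short ones, the lysine-rich members carry a short basic stretch, chimeric members join an AGP part to another domain, and fasciclin-like members carry domains that resemble an animal cell adhesion module. Family members are known from pollen, root, xylem and expanding tissue, where they have been tied to growth and wall formation.

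Transcript levels are given as log2 of the processed spot signal minus the 75th percentile of the same array, so a level of 0 is that percentile and a step of 1 is a doubling. Levels of different genes come from different probes and are not set against each other. A gene entered the comparisons when its probe stood well above background on 5 or more arrays, and 32 of the 35 members did. The 3 others, AGP11 (AT3G01700), AGP23 (AT3G57690) and AGP40 (AT3G20865), reached that mark on 0 arrays. These are known as pollen genes, and the 12 pollen markers examined behaved alike: 10 were well above background on no array and the other 2 on 1 array each, and 0 entered the comparisons. AGP6 (AT5G14380), another pollen AGP, was well above background on all 10 arrays, though dim, with levels from -5.60 to -4.99 on mock arrays and from -5.48 to -4.60 on gamma arrays.

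The 5 DNA damage genes used as a check were all higher after gamma in 5 of 5 experiments, from 2.29 ± 0.14 SE on the log2 scale for the cyclin gene CYCB1;1 to 5.73 ± 0.13 SE for the cyclin-dependent kinase inhibitor gene AT3G27630 (limma adjusted p of 0.00141 and 6.4e-05). Leaf markers were bright on all arrays and the 7 root hair markers were well above background on all 10 arrays. In such bulk tissue fewer cells of a type and less RNA per cell cannot be told apart.

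Most of the 32 measured members were slightly lower after gamma, and few were higher. The mean change was below 0 for 25 of the 32 (78.1%, against 53.8% of all 23666 genes tested), with a median of -0.14 against -0.015 for all genes. Of the 32, 8 were lower in every one of the 5 experiments (AGP7, AGP10, AGP12, AGP13, AGP14, AGP17, AGP22 and AGP31), where 13.5% of all genes were. In experiment 2 the sign depends on the scaling, since the 75th percentile was 1994 on the mock and 2641 on the gamma array. Before scaling, AGP7 and AGP31 were lower after gamma there, and AGP10, AGP12, AGP13, AGP14, AGP17 and AGP22 were higher. The scaled change of AGP14 there, -0.005, was nearer 0 than the median of all genes, -0.018. AGP5 alone was higher in all 5, where 10.2% of all genes were. In the limma fit across all genes 4 of 32 members (12.5%) were lower past the adjusted threshold of 0.05, namely AGP7, AGP17, AGP22 and AGP31, beside 2.33% of all genes, and 0 were higher, beside 1.68%. In either direction 4.01% of all genes passed, and 23.7% had 1 sign in all 5 experiments. Since the list was chosen on this contrast, nothing is read from these shares. Leaving out an experiment changed which members passed: without experiment 1 only AGP31 was called, without experiment 2 AGP13, AGP22 and AGP31 were, without experiment 3, 4 or 5 none was, and none was without the experiment as a block. Over the same omissions the mean changes ran from -0.80 to -0.66 for AGP7, -0.42 to -0.34 for AGP17, -0.75 to -0.57 for AGP22 and -0.59 to -0.50 for AGP31. Passing the threshold asks for changes that are alike between experiments, so the narrow ranges of these 4 genes support nothing. The count over all genes went from 949 to 266, 1021, 192, 181 and 230 without experiment 1, 2, 3, 4 and 5.

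**Figure D1:**
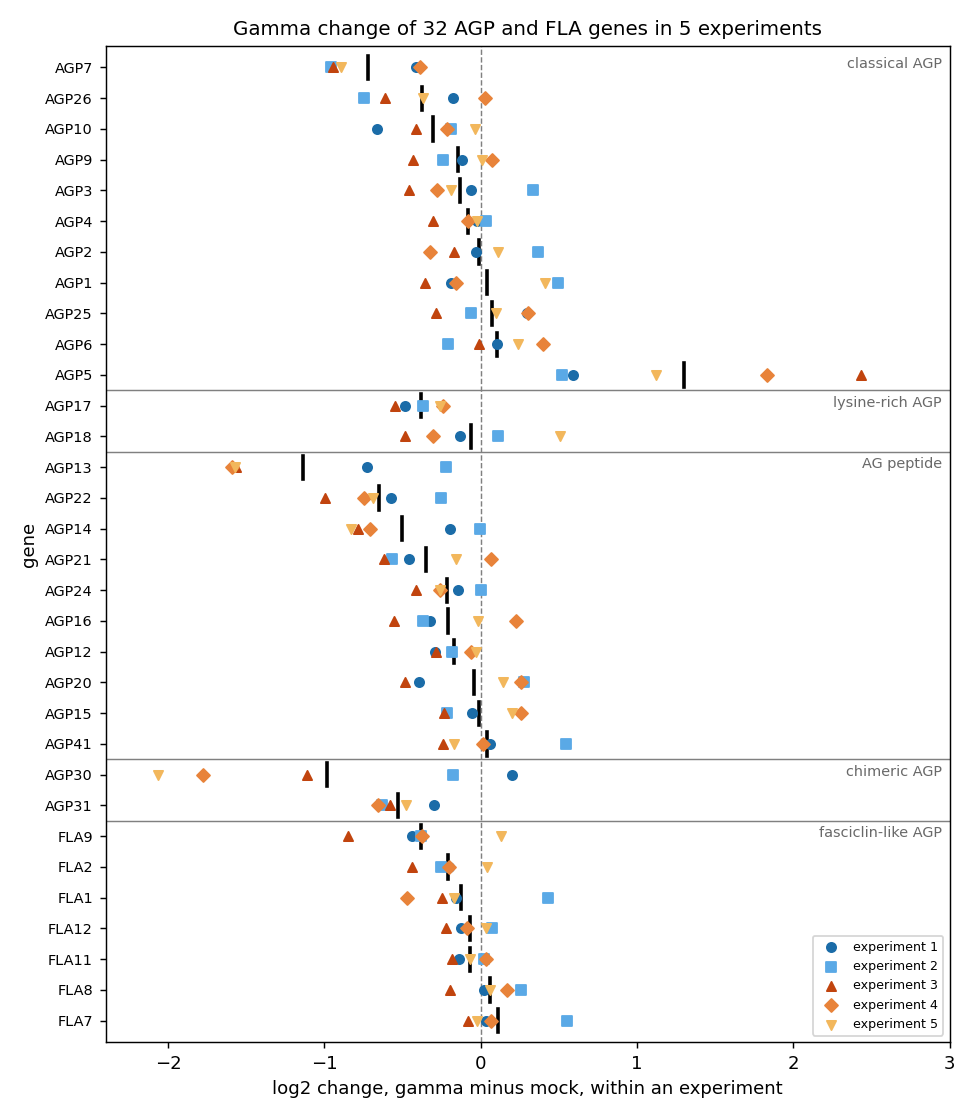
Gamma minus mock change (log2, horizontal axis) within each of the 5 experiments for the 32 measured genes, grouped by class. Symbols are single experiments and black bars their means. Most bars lie between -0.4 and 0.1, AGP5 stands at 1.30, and AGP13 and AGP30 lie lowest at -1.14 and -0.99 with wide spread.

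The gamma changes of the members are also given by experiment. The median change of the 32 members was -0.16, -0.12, -0.42, -0.12 and -0.029 in experiments 1 to 5. In experiment 3, 31 of the 32 were below 0, against 25, 18, 19 and 19 in experiments 1, 2, 4 and 5. The median of all genes stayed between -0.018 and -0.004 in each experiment. The share of all genes below 0 was not counted by experiment. The list was chosen on these changes, so nothing is read from the counts or medians.

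Among the AG peptides, 9 of the 10 measured lay below 0, with a median of -0.21. AGP13 (AT4G26320) had the lowest mean change of all members. Its levels were -0.31, -0.23, 0.13, -0.79 and -1.10 on mock arrays 1 to 5, and -1.04, -0.46, -1.44, -2.39 and -2.67 on gamma arrays 1 to 5. It was lower after gamma in each experiment, although the 2 groups overlap. The mean change was -1.14 ± 0.63 (SD, n = 5 pairs), that is 2.20-fold lower. A dimmer AGP13 probe gave -1.19.

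AGP22 (AT5G53250) levels were -0.64, -0.17, 0.58, -0.51 and -0.37 on the mock arrays, and -1.21, -0.43, -0.41, -1.26 and -1.06 on the gamma arrays. The mock array of experiment 3 was the highest and the change was largest there, with a mean of -0.65 ± 0.27 (SD, n = 5 pairs). AGP14 (AT5G56540), a peptide expressed in roots, gave 0.25, 0.41, 0.98, -0.36 and -0.33 on mock arrays and 0.057, 0.40, 0.19, -1.07 and -1.16 on gamma arrays. Its gamma arrays of experiments 4 and 5 lay below all others, and its mean change was -0.50 ± 0.38 (SD, n = 5 pairs). The change in experiment 2 was only -0.005. AGP12 (AT3G13520) was lower in 5 of 5 experiments by a small -0.17 ± 0.12 (SD, n = 5 pairs). Its dimmer probe gave -0.175 but was above 0 in experiment 4, at 0.055. AGP21 (AT1G55330), linked to root hair cell fate, gave -0.35 ± 0.29 and AGP24 (AT5G40730) -0.22 ± 0.16 (SD, n = 5 pairs each), each below 0 in 4 of 5 experiments. The means of AGP15 (AT5G11740), AGP16 (AT2G46330), AGP20 (AT3G61640) and AGP41 (AT5G24105) were -0.012, -0.21, -0.042 and 0.042, all smaller than their SD.

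The 2 chimeric members were both lower on average. AGP31 (AT1G28290), a protein of vascular tissue whose domain beside the AGP part binds wall polysaccharides, had the steadiest change of the named genes relative to its spread. Its levels were 4.57, 4.99, 4.68, 4.61 and 4.25 on mock arrays and 4.27, 4.36, 4.10, 3.95 and 3.77 on gamma arrays. It was lower in 5 of 5 experiments by -0.53 ± 0.15 (SD, n = 5 pairs), or 1.45-fold, and its other probes gave -0.50 and, for a much dimmer one, -0.39. The much dimmer probe was above 0 in experiment 4, at 0.091.

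AGP30 (AT2G33790), a root protein known for its part in root regeneration and the timing of germination, split by experiment, and it is described because of these values rather than by the rule for naming genes. Levels on mock arrays were -0.73, -1.35, -1.28, -2.22 and -1.72, and on gamma arrays -0.53, -1.53, -2.39, -4.00 and -3.79. In experiments 1 and 2 the change was 0.20 and -0.18, and in experiments 3, 4 and 5 it was -1.11, -1.78 and -2.06. Its mean of -0.99 ± 0.98 (SD, n = 5 pairs) is of the size of its spread. The second probe gave -0.98.

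Both lysine-rich members lay below 0 on average, but apart in steadiness. AGP17 (AT2G23130), needed in roots for the binding of Agrobacterium, had levels of 0.38, 1.08, 0.067, -0.18 and 1.03 on mock arrays and -0.11, 0.71, -0.48, -0.42 and 0.77 on gamma arrays. It was lower in 5 of 5 experiments by -0.38 ± 0.14 (SD, n = 5 pairs), less than its range of 1.26 over the mock arrays. AGP18 (AT4G37450), known for its part in the selection of the functional megaspore, gave -0.062 ± 0.39 (SD, n = 5 pairs), with single changes on both sides of 0.

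Classical AGPs were mixed, with 7 of the 11 measured below 0 and a median of -0.08. AGP7 (AT5G65390) had levels of 1.32, 2.59, 2.16, 1.08 and 2.35 on mock arrays and 0.90, 1.63, 1.21, 0.69 and 1.46 on gamma arrays. The change was near -0.4 in experiments 1 and 4 and near -0.9 in the other 3, with a mean of -0.72 ± 0.29 (SD, n = 5 pairs), or 1.65-fold lower. AGP10 (AT4G09030) had levels of 1.28, 1.69, 1.58, 1.36 and 2.41 on mock arrays and 0.62, 1.501, 1.17, 1.14 and 2.37 on gamma arrays, a mean change of -0.30 ± 0.24 (SD, n = 5 pairs). AGP4 (AT5G10430), named JAGGER for its part in keeping further pollen tubes out of a fertilised ovule, gave -0.08 ± 0.13 (SD, n = 5 pairs). AGP26 (AT2G47930) was below 0 in 4 of 5 experiments, with -0.38 ± 0.31 (SD, n = 5 pairs). The means of AGP2 (AT2G22470), AGP3 (AT4G40090), AGP6, AGP9 (AT2G14890) and AGP25 (AT5G18690) were -0.01, -0.13, 0.10, -0.14 and 0.071, all smaller than their SD.

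AGP5 (AT1G35230) went the other way. Its levels were -4.37, -3.97, -6.34, -6.15 and -4.28 on mock arrays, and -3.78, -3.45, -3.91, -4.31 and -3.16 on gamma arrays. The mock arrays of experiments 3 and 4 lay far below the other 3, while the 5 gamma arrays lay close together. The mean change was 1.30 ± 0.82 (SD, n = 5 pairs), from 0.52 to 2.43 in single experiments. The gene is dim: it was well above background on 5 of 5 gamma arrays but on 4 of 5 mock arrays, with processed signals from 22.95 to 127.2 on the mock arrays. The mock array that missed was that of experiment 3, the pair with the change of 2.43, and without this pair the mean was 1.02. With normexp background correction the mean change was 0.76.

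**Figure D2:**
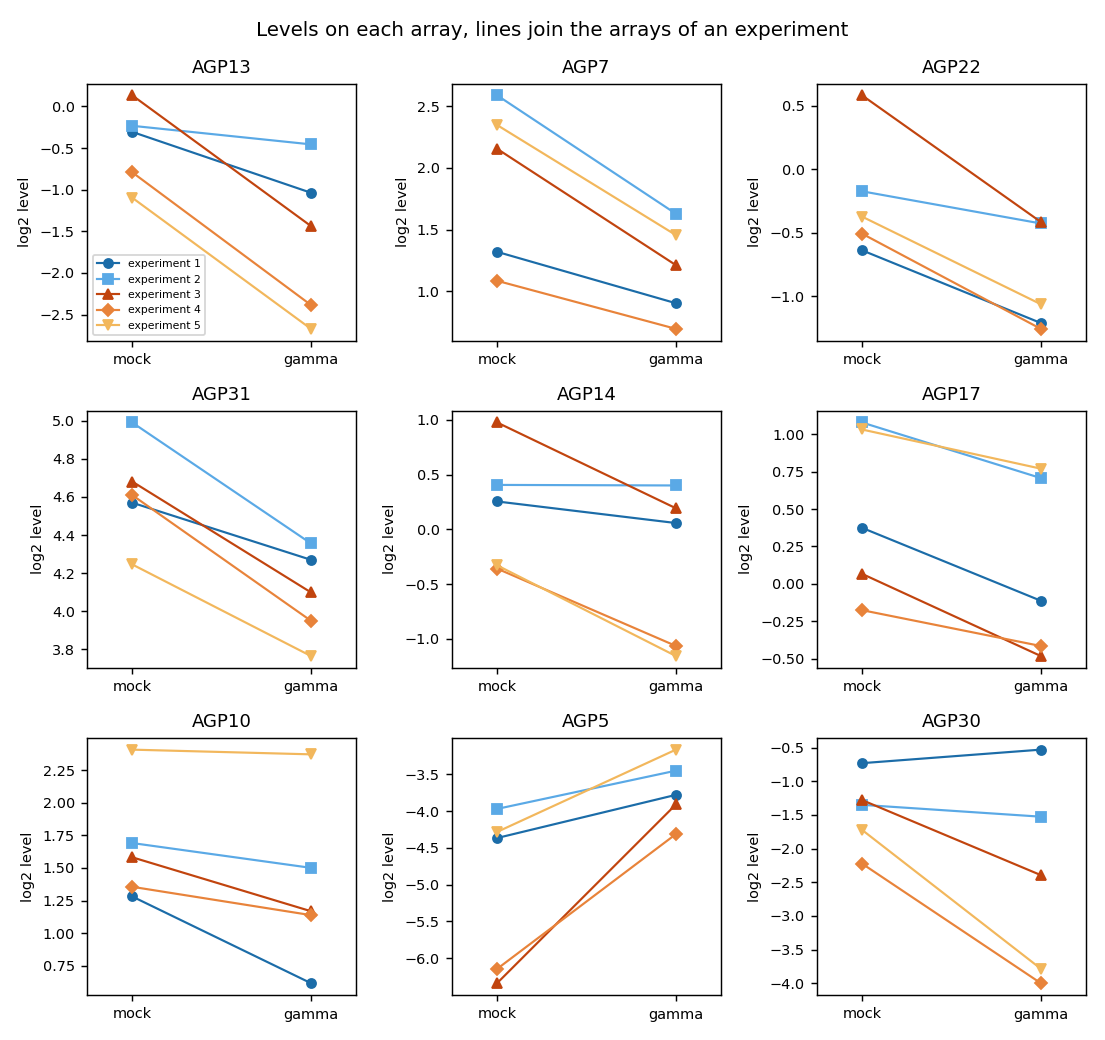
Log2 level on the mock and gamma array of each experiment for the 8 genes with the same sign in 5 experiments and a mean change of at least 0.3, and for AGP30. Lines join the 2 arrays of an experiment. Lines slope down for 7 genes, apart from a flat AGP14 line in experiment 2 (-0.005), and all slope up for AGP5. AGP30 changes by 0.20 and -0.18 in experiments 1 and 2 and falls further in experiments 3 to 5.

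None of the 7 fasciclin-like members was lower in all 5 experiments, or higher in all 5, and their median change was -0.067. FLA9 (AT1G03870) was lowest, at -0.38 ± 0.35 (SD, n = 5 pairs), below 0 in 4 of 5 experiments. FLA2 (AT4G12730) gave -0.21 ± 0.17 and FLA1 (AT5G55730), linked to shoot regeneration, -0.12 ± 0.33 (SD, n = 5 pairs each). FLA11 (AT5G03170) and FLA12 (AT5G60490), genes of the secondary walls of xylem and fibres, gave -0.067 ± 0.095 and -0.067 ± 0.12 (SD, n = 5 pairs each). FLA8 (AT2G45470) gave 0.062 ± 0.17 and FLA7 (AT2G04780) 0.11 ± 0.26 (SD, n = 5 pairs each).

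Over all classes, the 23 measured members not named for their change and other than AGP30 had means between -0.38 and 0.11. For 17 of these 23 the mean was smaller than the SD of the 5 differences. The ranges of mock and gamma arrays overlapped for all 32 measured members, where 2.04% of all genes had ranges apart. For 16 members the array held more than 1 probe. Of the 24 further probes 23 passed the same filter, and these gave mean changes within 0.15 of the probe used, with a median gap of 0.032.

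The later experiments held the larger changes of several members. For AGP13 the mean change was -0.48 in the 2 experiments of the earlier year and -1.58 in the 3 of the later one. For AGP30 the same means were 0.013 and -1.65, for AGP14 -0.10 and -0.77, and for AGP5 0.55 and 1.79. These genes were picked out because of this split. A limma comparison of the years, run after the values had been seen and on the changes that chose the members, passed for 0 of the 32 (5 before adjustment at 0.05) and for 1 of 23666 genes (0.00423%, with 2485 before adjustment), and it supports no statement either way. The changes of the 2 years did not overlap for 10 of the 32 members (31.2%), close to the 30.4% of all genes.

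The 7 root hair markers, like AGP13, AGP14 and AGP30, had lower changes in the later year. They had mean changes between 0.15 and 0.49 in the earlier year and between -0.48 and -0.096 in the later year, and in that comparison their adjusted p ran from 0.253 to 0.442 (limma). Their medians in experiments 1 to 5 were 0.16, 0.49, -0.37, -0.26 and -0.028. The likeness is partial. In experiment 5 AGP13, AGP14 and AGP30 changed by -1.57, -0.83 and -2.06, while the median of the markers was near 0. In the earlier year the means of AGP13 and AGP14 were below 0 (-0.48 and -0.10), unlike those of the markers. The summed signal of the 7 markers, relative to the 75th percentile, ranged from 2.09 to 5.18 on mock arrays and from 2.32 to 4.01 on gamma arrays. Lower changes in the later year were not particular to these markers. The 4 measured prolyl hydroxylase genes had mean changes from 0.048 to 0.24 in the earlier year and from -0.21 to 0.026 in the later. Medians of the 18 measured glycan chain genes were 0.06, 0.15, -0.07, -0.15 and -0.05 in experiments 1 to 5. The 4 leaf markers went the other way, from -0.14 to 0.076 in the earlier year and from 0.02 to 0.12 in the later. The part of the root hair markers in the values of the 3 AGP genes was not tested.

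**Figure D3:**
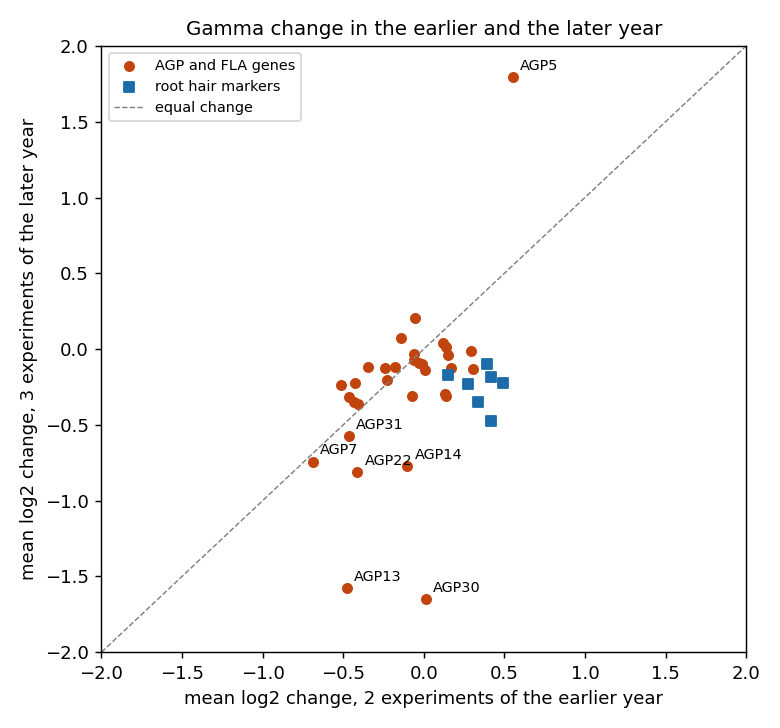
Mean gamma minus mock change (log2) in the 2 experiments of the earlier year (horizontal) and the 3 of the later year (vertical) for the 32 measured members and 7 root hair markers. The dashed line marks equal change. AGP13, AGP14 and AGP30 lie below it and AGP5 above it, and the root hair markers lie to the right of 0 and below 0.

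Levels of most members differed from one experiment to the next. They did so for 24 of the 32 measured members (75%) in an F test of the experiment term (limma, adjusted over all genes). Of all genes 56.2% did. The differences between experiments leave out the contrast by which the members were chosen. The error term is the spread of the gamma minus mock changes, so the shares are not wholly free of that choice. All 10 measured AG peptides and both chimeric members were among the 24, with 7 of 11 classical AGPs, 1 of 2 lysine-rich members and 4 of 7 fasciclin-like ones. The count was 14 of 32 without experiment 5, when 5508 of 23666 genes passed. The median range over the 5 mock arrays was 1.13 for the members and 0.72 for all genes.

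AGP1 (AT5G64310) had the widest range of all members. Its levels were 3.17, 3.23, 1.64, 1.73 and 4.72 on mock arrays and 2.98, 3.73, 1.28, 1.57 and 5.13 on gamma arrays. The experiment 5 array was highest and those of experiments 3 and 4 lowest in both groups, an 8.47-fold range over the mock arrays (limma F test, adjusted p = 0.001). Its gamma change was 0.039 ± 0.38 (SD, n = 5 pairs), and its mock range lay at the 97.4th percentile of all genes.

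The AG peptide gene AGP20 was also highest in experiment 5, whose arrays had the largest share of spots well above background. Its levels were 0.61, 0.66, 0.047, -0.76 and 2.13 on mock arrays and 0.22, 0.94, -0.44, -0.51 and 2.27 on gamma arrays. Its mock arrays spanned 7.42-fold (limma adjusted p = 0.0019). AGP17 differed between experiments as well (limma adjusted p = 0.00138). For AGP5, whose mock arrays spanned 5.17-fold, the F test did not pass (limma adjusted p = 0.0605). AGP23, not well above background on any of the arrays, gave -8.27, -8.20, -8.15, -7.67 and -9.66 on mock arrays and -8.52, -8.17, -8.10, -8.45 and -9.77 on gamma arrays. Its mock range of 1.99 therefore describes dim spots rather than a measured level.

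Mock arrays varied little for FLA12, FLA7 and AGP18, with ranges of 0.38, 0.49 and 0.43. The gamma arrays of AGP18 spread wider, from -1.76 to -0.86. The F test did not pass for FLA12, FLA7 and AGP18 (limma adjusted p of 0.331, 0.451 and 0.295). FLA1 (0.174), AGP26 (0.0788), AGP9 (0.0747) and AGP25 (0.072) did not pass either. FLA11 passed (limma adjusted p = 0.0182) with a mock range of 0.49.

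**Figure D4:**
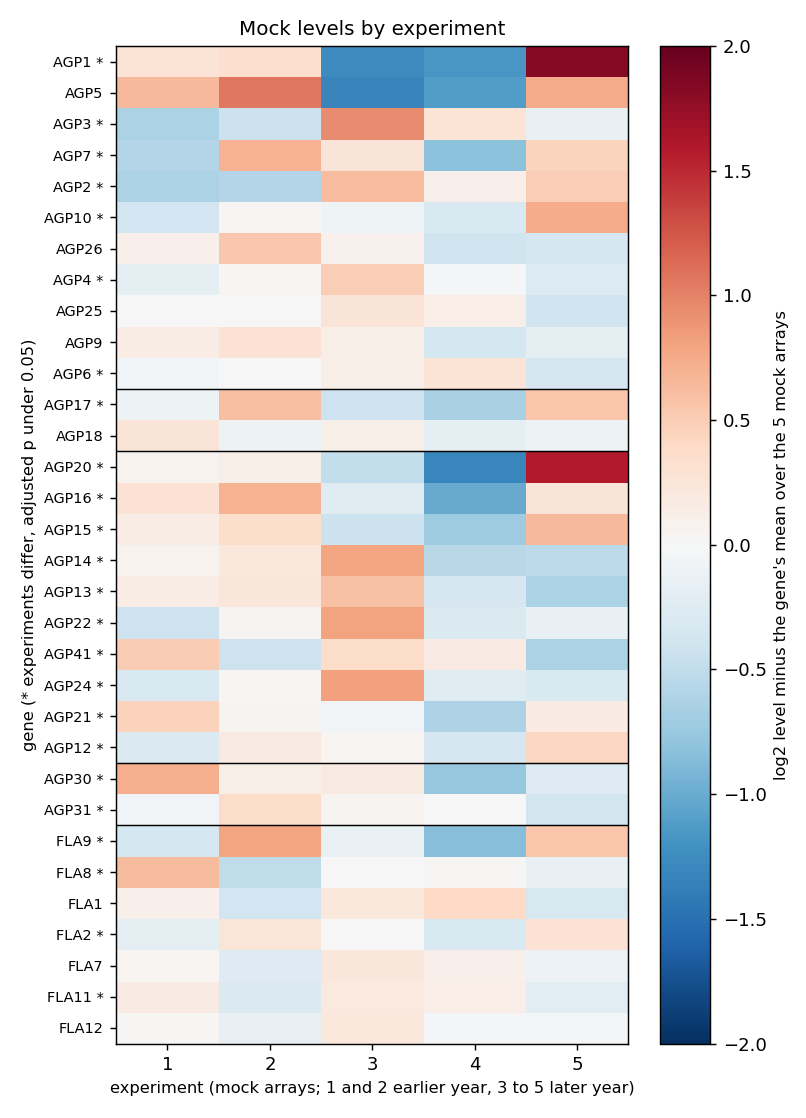
Log2 level of each measured member on the 5 mock arrays, minus the gene's own mean over them, as colour from -2 (blue) to 2 (red), grouped by class from classical AGPs at the top to fasciclin-like members at the bottom. Stars mark the 24 genes whose levels differed between experiments. AGP1 and AGP20 are reddest in experiment 5.

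The mock arrays were also compared by year, 3 later ones against 2 earlier ones. In limma 0 of 32 members passed (2 before adjustment at 0.05), while 54 of 23666 genes did (0.228%). The smallest adjusted p was that of AGP2, which was higher by 1.01 ± 0.22 SE in the later year (limma adjusted p = 0.289). Among the gamma arrays 0 members and 0 of 23666 genes (0%) passed in limma, where 1500 genes had an unadjusted p under 0.05.

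Genes related to the family by function or tissue were listed as a setting for these values. Of 16 further AGP and FLA genes 12 were measured, and 0 of them passed in limma (2 before adjustment at 0.05), with a median of 0.042. FLA10 was below 0 in 5 of 5 experiments, at -0.56 ± 0.15 SE (limma adjusted p = 0.103). FLA5 gave -1.07 ± 0.43 SE (adjusted p = 0.216), with -3.15 in experiment 2 alone, and it was well above background on 4 mock arrays and 1 gamma array. Without experiment 2 the mean for FLA5 was -0.55. With normexp background correction FLA5 gave -0.32 and FLA10 -0.19. The pollen genes FLA3 and FLA14 stood well above background on 0 arrays.

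Of 19 genes for the glycan chains 18 were measured and 0 passed in limma (2 before adjustment at 0.05), with changes from -0.20 to 0.28 and a median of -0.026. The 2 with the smallest adjusted p were AT4G32120 at 0.28 ± 0.07 SE (limma adjusted p = 0.087) and the galactosyltransferase gene GALT31A (AT1G32930) at -0.20 ± 0.06 SE (0.131). Of 5 prolyl hydroxylase genes 4 were measured and 0 passed in limma (0 before adjustment at 0.05). AT-P4H-1 gave 0.067 ± 0.06 SE and P4H2 -0.09 ± 0.08 SE. The difference between these lists and the members was not tested.

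The 14 secondary wall genes, which include the cellulose synthase gene CESA4 and are background for FLA11 and FLA12, had 0 past the threshold in limma (0 before adjustment at 0.05), with changes from -0.12 to 0.18. The xylem protease gene XCP2 gave -0.12 ± 0.06 SE and the vessel regulator VND7 0.18 ± 0.10 SE (limma adjusted p = 0.335 each). Among the 7 root hair markers 0 passed in limma (0 before adjustment at 0.05). The wall protein gene LRX1 gave 0.10 ± 0.12 SE and the transcription factor RSL4 -0.12 ± 0.21 SE. Among the 4 leaf markers 0 passed in limma (0 before adjustment at 0.05). RCA, the Rubisco activase gene, gave 0.10 ± 0.05 SE and CAB2, an antenna protein gene, -0.043 ± 0.06 SE.

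**Figure D5:**
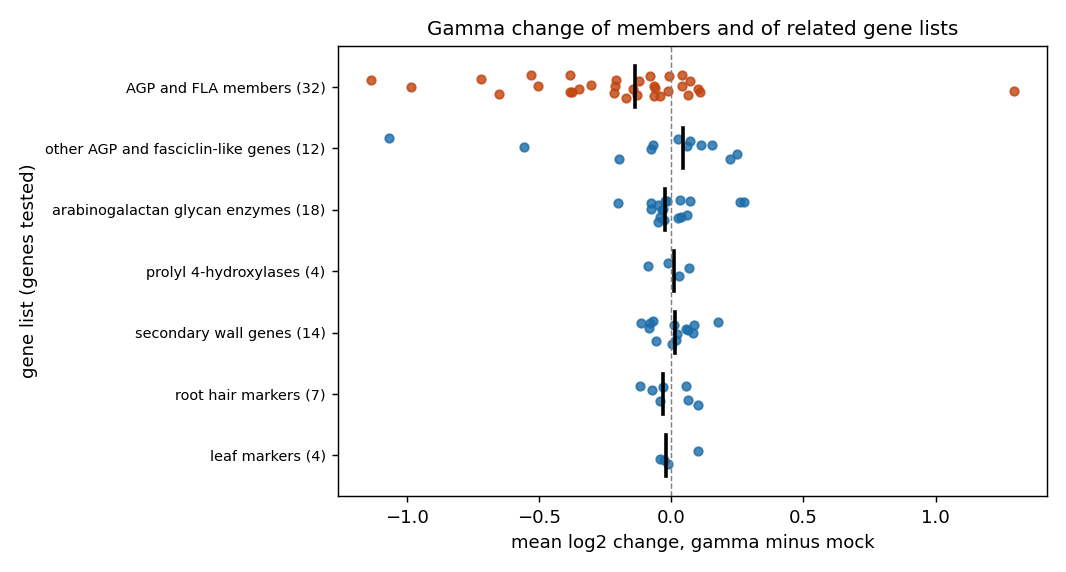
Mean log2 change, gamma minus mock, of the 32 measured members (top) and of 6 related lists. Points are genes, black bars list medians. The members spread from -1.14 to 1.30 with a median of -0.14, and the medians of the other lists lie between -0.03 and 0.042.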

How the data were processed

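Per the file headers, the deposited scanner files give each spot's intensity on a linear scale, as processed signals (background-subtracted and detrended, Agilent Feature Extraction 11.0.1.1) and pixel medians. The submitters' processing notes name version 9.1. The deposited value table holds linear ratios, since its columns followed the probe-centred processed signal with r of at least 0.997 across probes and 77.7% of probes had a median of 1 (tolerance 1e-04). The median of a mock column was 0.969, 0.963, 0.959, 0.974 or 0.926 (experiments 1 to 5), and that of a gamma column 0.967, 0.960, 0.967, 0.993 or 0.925. Its centring for the other probes and its scaling are unknown, and it served only as an alternative.

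Processed signals were taken to log2, and each array's 75th percentile over 43803 non-control spots was subtracted. Outlier spots were left out and the rest averaged per probe. Transcript accessions named 34348 of 43603 probes, using RefSeq's gene table (TAIR10.1). AGP classes come from general knowledge. Each gene was represented by its brightest probe, and 23666 genes passed the filter of 5 arrays well above background.

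Gamma and mock were compared with limma 3.58.1 in R 4.3.3 (lmFit, eBayes; two-sided), blocking on experiment, with p adjusted by Benjamini-Hochberg over all genes (threshold 0.05). The same fit gave the F test of the experiment term. The fits were run on simulated data to check the code, with noise of the size left over in the gamma and mock fit. For the year comparison that noise is not the spread between runs, so the simulation does not show how often it errs here. Slide and scan coincide with the experiment. Pairing comes from the runs in the titles: deviations of paired arrays correlated at 0.562 to 0.894 across genes, each array most closely with its own partner. P-values of the gamma and year comparisons rest on the spread between runs. The F test sets differences between runs, with slide and scan included, against the spread of the gamma minus mock changes.

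The members, lists and rules were chosen with earlier results of these data known. Values of all arrays are given for members with 1 sign in 5 experiments and a mean change of at least 0.3, and for the 4 with the largest range over mock arrays. Of each other list, genes past the threshold (at most 6) or else the 2 with the smallest adjusted p are named; of the 5 check genes the lowest and highest stand for all. AGP30 and the comparison of changes between years were added after the values were seen. The normexp alternative (offset 50) used median spot signals in place of the planned mean ones. Sequences were not used here.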

Additional observations from a re-analysis of the deposited data

Results flagged for a closer look

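Of 96 sets of 5 values (mock levels, gamma levels and changes of the 32 measured members) 2 held a value far from the others, where about 4.8 would be marked by chance at 1 in 20. The FLA1 level on gamma array 5 was -0.576, while the other 4 gamma arrays lay between -0.153 and -0.04. The FLA7 change in experiment 2 was 0.553, while the other 4 changes lay between -0.083 and 0.066.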

How the results depend on the processing

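Scaling to the array median, quantile normalisation, the deposited table, normexp, the stricter filter and the mean over probes kept the counts of genes past the threshold within 1.5 times of 949, and called 4 or 5 members lower. AGP22, AGP31 and AGP7 were called under each of these. AGP17 was not called with median scaling or the deposited table, where AGP13 was. Normexp also called 1 member higher, AGP5. Under these settings 23 to 25 of the 32 members lay below 0, and the median of all genes stayed within 0.1 of 0. The stricter filter, on all 10 arrays, left out AGP5 and so held 31 members. Without a filter 328 genes passed (175 higher, 153 lower) and 1 member was lower. With no replicate block 142 passed (107 higher, 35 lower) and 0 members did. Leaving out 1 experiment gave 181 to 1021 genes, 113 to 404 of them higher and 68 to 617 lower, and 0 to 3 members lower. The list was chosen on this contrast, so nothing is read from the member counts under any setting. The mean changes of the 8 genes named by the rule and of AGP30 kept their sign under all alternatives in which they were measured. They ran from 0.759 to 1.49 for AGP5, which the stricter filter left out, and from -1.37 to -1.02 for AGP13. For the 8 genes the sign on leaving out 1 experiment was fixed by the rule, which asks for 1 sign in all 5 experiments. The settings without a filter or a block leave the mean changes as they were. Signs kept under those settings support nothing.

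Differences between experiments passed for 5508 to 15572 genes and 14 to 26 members on leaving out 1 experiment. The count by year among mock arrays was 0 without a filter, 0 among gamma arrays, and 0 to 90 on leaving out 1 experiment (90 without experiment 5). Without experiment 1 or 2, the lone earlier array is assumed to vary like the later ones. The calls between experiments of AGP6, AGP13 and AGP30 were lost in 7, 5 and 5 of 10 alternatives. The cause of these shifts was not tested. Slide and scan as a separate block were not run, since they coincide with the experiment. Signal over background limits AGP5 and leaves AGP11, AGP23 and AGP40 unmeasured.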
